A study of Mus musculus with 7 samples.

Results

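Cadherins, protocadherins and the catenins that bind them were examined in whole mouse embryos whose mothers were diabetic. Members were all probe sets of the array annotated to a cadherin (Cdh followed by a number), a protocadherin (Pcdh), an α-catenin or a δ-catenin. They numbered 71 of 22690 probe sets, of which 65 named a single gene, 51 genes in all, and 6 named several protocadherins of the α cluster together. Expression was profiled on 7 one-colour Affymetrix arrays, 1 for each embryo, at embryonic day 10.5 (E10.5). Of 5 FVB embryos exposed to maternal diabetes, 2 had neural tube defects (NTD) and are called NTD 1 and 2, and 3 had none and are called no-NTD 1 to 3. The 2 controls were FVB embryos of the same stage from an untreated mother. Diabetes had been induced by streptozotocin, which destroys insulin-producing cells, in females aged 7 to 9 weeks, and blood glucose of diabetic dams exceeded 250 mg/dl. All exposed embryos shared 1 mother and both controls shared another, so that an effect of diabetes and a difference between these litters cannot be told apart, and p-values measure only the spread between littermates.

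Cadherins are single-pass membrane proteins whose calcium-dependent outer repeats bind the same or similar cadherins on the neighbouring cell. Inside the cell, classical cadherins hold β-catenin, which binds α-catenin and through it the actin cytoskeleton, while p120 and other δ-catenins bind closer to the membrane and limit removal of the cadherin from the surface. During neurulation the closing neural tube loses E-cadherin and gains N-cadherin, and neural crest cells change their cadherins again as they leave it. Protocadherins, which lack the classical catenin-binding tail, act in cell sorting and in recognition between neurons, and the clustered ones are expressed in different combinations from neuron to neuron.

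Most of the family lay at low signal in these embryos. A probe set was tested where its signal reached the 40th percentile of its array in at least 2 of the 7 arrays, and 21 of the 71 member probe sets did (29.6%), against 14554 of 22626 over the array (64.3%). The 21 covered 17 genes. By class, 9 of 23 cadherin, 3 of 4 α-catenin, 2 of 2 δ-catenin, 4 of 13 non-clustered protocadherin and 3 of 23 β-cluster protocadherin probe sets passed, and none of the 6 of the α cluster did. The other 50 never exceeded a signal of 188 and were not tested in the main comparison. Signals are MAS5 intensities in arbitrary units, and they are compared here between embryos for the same probe set, not between probe sets, since the probes of different genes bind with different strength. Lists of cell type markers are also given as sums of 1 probe set for each gene, compared between embryos, and the brightest probe sets carry most of such a sum.

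None of the 21 tested members changed between exposed and control embryos at an adjusted p under 0.05 (limma on log2 signals, Benjamini-Hochberg over all tested probe sets), where 0.172% of all tested probe sets were called. The smallest adjusted p among members was 0.142. At an unadjusted p under 0.05, 3 members were lower (14.3%) and 0 higher in exposed embryos, beside 8.52% of all tested probe sets lower and 7.63% higher. Of the 3, 2 were of Pcdh18 and 1 was of Ctnna2. With only the brightest probe set of each gene, 17 were tested, and 1 was lower and 0 higher at that p. Signals of all exposed embryos lay below both controls for 4 members and above both for 2, where the background shares were 13.4% and 11.4%. On the same signals the methods' t-test, which assumes unequal variances, put 5 of 21 members under an unadjusted p of 0.05 and 0 after Benjamini-Hochberg adjustment, with 18.2% of all tested probe sets under the unadjusted threshold. The median difference over members was -0.01 on the log2 scale, beside 0.00 over all tested probe sets, and the median size of the difference regardless of sign was 0.20 over members and 0.19 over all tested probe sets. The 2 genes farthest from 0 were Pcdh18 and Ctnna2, both lower in exposed embryos. Ctnna2 and Pcdh18 1430427_a_at reached the 40th percentile in the 2 controls alone. All their exposed signals lay below the cutoffs of those arrays, 135 to 146. These probe sets were thus tested only through the group where they were high, and their passing the filter lends the differences no weight.

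**Figure D1:**
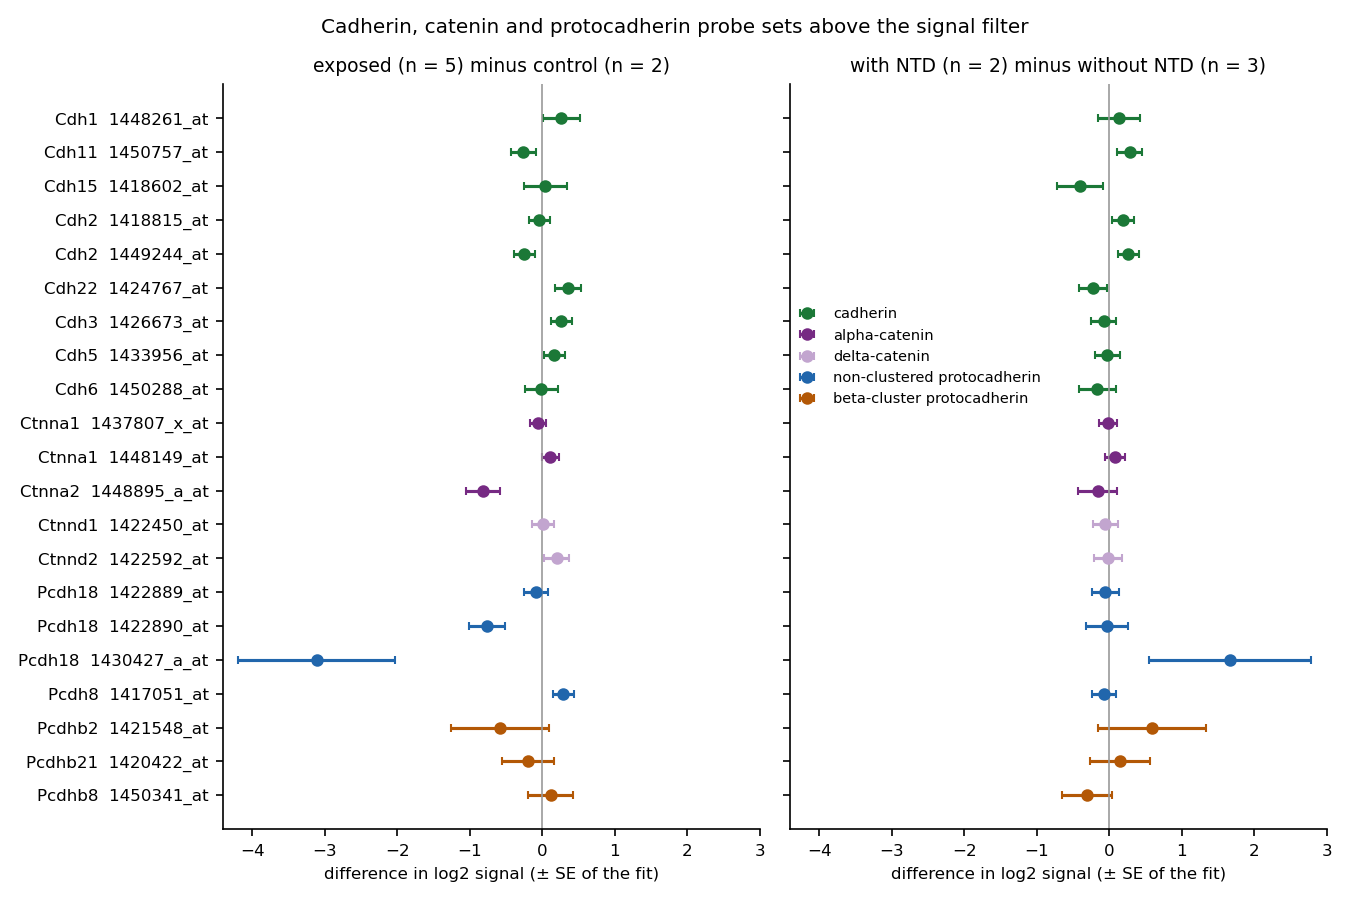
Differences in log2 signal of the 21 tested member probe sets, exposed minus control embryos on the left and exposed with NTD minus exposed without NTD on the right, with points coloured by class and bars of 1 standard error of the fit. On the left 2 Pcdh18 probe sets (-3.10 and -0.76) and Ctnna2 (-0.82) lie farthest below 0, while all other members lie between -0.58 and 0.36.

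Pcdh18 encodes a non-clustered protocadherin of the δ group. It was represented by 3 probe sets, and these did not give 1 picture. For 1430427_a_at, signals were 89.5 and 20.5 in NTD 1 and 2 and 17.5, 5.17 and 27.4 in no-NTD 1 to 3, against 192 and 177 in controls. Every exposed embryo was below both controls, and NTD 1 stood above the other exposed embryos. The difference was -3.10 ± 1.08 on the log2 scale (SE, n = 5 and 2), with an unadjusted p of 0.0157 and an adjusted p of 0.202. Its size depended on how very low signals were treated: with 50 added to every signal before taking logarithms it was -1.59, and without no-NTD 2, the lowest embryo, -2.59.

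The second Pcdh18 probe set, 1422890_at, gave 301 and 196 in NTD embryos and 354, 178 and 244 in no-NTD embryos, against 439 and 398 in controls. Again no exposed embryo reached a control, and the difference was -0.76 ± 0.25 with an adjusted p of 0.186. The third, 1422889_at, gave 614 and 924 in NTD embryos and 787, 845 and 717 in no-NTD embryos, against 846 and 790 in controls. Here exposed and control embryos overlapped, and the difference was -0.09 ± 0.16 with an adjusted p of 0.834. The array annotation gives all 3 to Pcdh18, and their positions along the transcript were not given in the sources used here.

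Ctnna2 encodes αN-catenin, the α-catenin of neurons, which ties N-cadherin complexes to actin. Its probe set, 1448895_a_at, gave 105 and 102 in NTD embryos and 113, 106 and 128 in no-NTD embryos, against 179 and 213 in controls. All exposed embryos were below both controls with a narrow spread, and the ratio of the exposed to the control mean was 0.566. The difference was -0.82 ± 0.23 (SE, n = 5 and 2), with an unadjusted p of 0.00511 and an adjusted p of 0.142. It passed the threshold in 1 alternative alone, a fit with quality weights for each array, where it was -0.85 with an adjusted p of 0.0498 and where 3.37% of all tested probe sets were called. A filter on the mean signal left this probe set out, so it was not tested there. Over the settings that kept it the difference ranged between -0.95 and -0.61, and no adjusted p was below 0.0498.

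**Figure D2:**
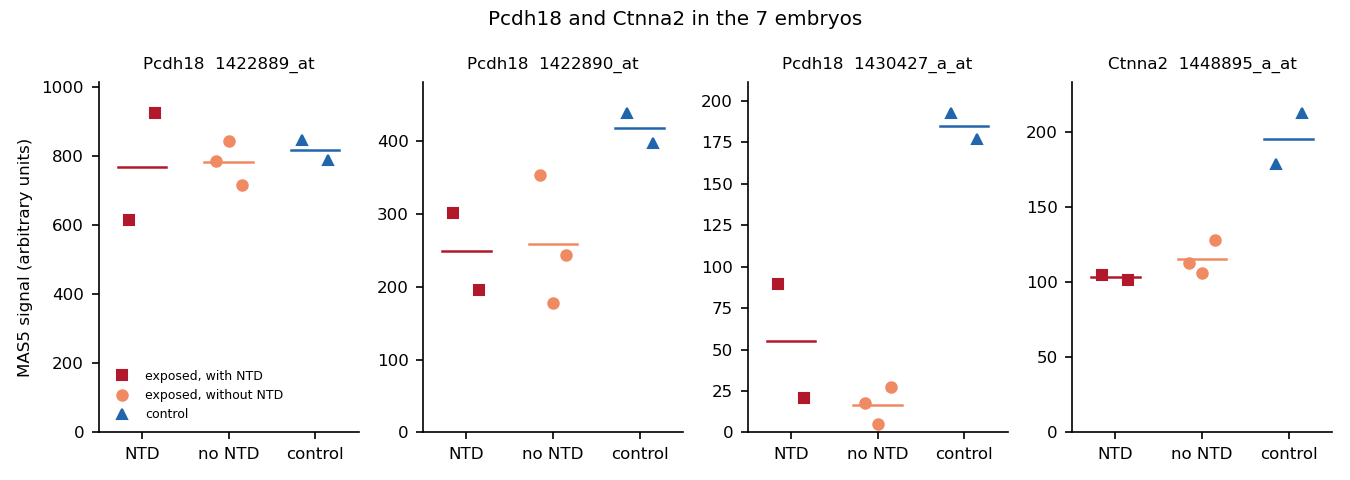
MAS5 signal (arbitrary units, linear axes starting at 0) of the 3 Pcdh18 probe sets and of Ctnna2 in each embryo, by group, with lines at the group means. In 3 panels every exposed embryo lies below both controls, and in the panel of 1422889_at the groups overlap.

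Some markers of neurons were lower in the same embryos. Of 17 tested probe sets for 9 of 10 neural tube and neuron markers, 2 were called lower (Dcx 1418141_at and Map2 1421328_at) and 0 higher in exposed embryos, and at an unadjusted p under 0.05 7 were lower (41.2%, beside 8.52% of all tested probe sets) and 0 higher. The 7 belonged to Dcx, Map2, Stmn2 and Fabp7, while Sox2, Pax6, Nes, Tubb3 and Elavl3 had none, and another Dcx probe set, 1418140_at, was at 0.02 ± 0.24. The signals of that list added up to between 8179 and 10011 in exposed embryos, against 11373 and 11454 in controls. Its part in the Ctnna2 result was not tested, and in whole embryos fewer cells of a type and less RNA per cell cannot be told apart. Erythroid markers were on the other side: 9 of 10 tested probe sets were higher at an unadjusted p under 0.05 (90.0%, beside 7.63%) and 0 were called, and their sums were 64485 to 83689 in exposed embryos, against 52066 and 54326 in controls. Cardiac muscle markers summed to between 11463 and 13591 in exposed embryos, against 10748 and 11162 in controls, with 1 of 8 tested probe sets under that p. The part of either list in the values of the members was not tested.

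The array's own control probes give ratios of 5′ to 3′ signal, which bear on RNA integrity. For the transferrin receptor the ratio was 0.236 and 0.263 in NTD embryos and 0.276, 0.284 and 0.341 in no-NTD embryos, against 0.336 and 0.390 in controls, so that 4 of 5 exposed embryos were below both controls and no-NTD 3 lay between them. For pyruvate carboxylase it was 0.147 to 0.409 in exposed embryos, against 0.260 and 0.496 in controls, for Gapdh 1.09 to 1.22, against 1.17 and 1.27, and for β-actin 0.854 to 0.932, against 0.896 and 0.956. Exposed and control embryos overlapped in all 4. The part of these ratios in the unequal Pcdh18 probe sets was not tested.

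Some arrays stood apart. In no-NTD 1 the summed signal of yolk sac endoderm and liver markers was 25208, against 1640 to 2862 in the other exposed embryos and 3598 to 4207 in controls, and only in NTD 1 was the 18S ribosomal RNA control high (6236, against 123 to 432 in the other 6). Embryo sex is not in the labels, but transcripts of the sex chromosomes differed. Xist (1427262_at), which coats the inactive X of females, was at 12.7 in NTD 2 and at 1830 to 3287 in the other exposed embryos, against 12.7 and 24.1 in controls, and the Y-linked Eif2s3y was at 245 in NTD 2 and at 2.76 or less in the other exposed embryos, against 227 and 203 in controls. Both controls and NTD 2 thus had a male pattern and the other 4 exposed embryos a female one, so sex and exposure largely coincided, and the part of sex in the differences of the members was not tested. Without no-NTD 1 the Ctnna2 difference was -0.83, and that of Pcdh18 1430427_a_at was -3.03.

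The upstream sequences of both genes are shown so that the 2 members of largest difference can be read beside their values. They are the 250 bases before the annotated start of Pcdh18 (chr3:49757317-49757566, minus strand) and of Ctnna2 (chr6:77979668-77979917, minus strand), 5′ to 3′, from RefSeq on GRCm38.p6. A match to an E-box of the type bound by Snail and Zeb repressors is in capitals.
Pcdh18: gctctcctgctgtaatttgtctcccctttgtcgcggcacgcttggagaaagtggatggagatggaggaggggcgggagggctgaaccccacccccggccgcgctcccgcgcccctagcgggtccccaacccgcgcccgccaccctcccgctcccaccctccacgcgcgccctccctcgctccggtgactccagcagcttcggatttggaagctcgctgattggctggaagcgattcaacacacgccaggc
Ctnna2: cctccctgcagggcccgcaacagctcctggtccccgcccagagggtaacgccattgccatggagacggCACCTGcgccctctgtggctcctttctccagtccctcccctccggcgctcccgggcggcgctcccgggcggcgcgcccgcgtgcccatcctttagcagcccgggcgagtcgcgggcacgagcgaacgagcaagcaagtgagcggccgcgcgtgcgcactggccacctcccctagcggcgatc

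The motifs searched on both strands of 300-base windows (250 before and 50 after the start) were the E-box CAGGTG, the hypoxia-response core ACGTG and the FOXO core GTAAACA. The E-box occurred in 20.2%, the hypoxia core in 19.6% and the FOXO core in 3.65% of 32851 promoters. Promoter sequences were at hand for 8 of the 17 tested genes, and among these Ctnna2 held the E-box (182 bases before its start) and Cdh15 the hypoxia core. The window of Pcdh18 held none of the 3. Such matches are descriptions of sequence, not sites of binding.

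Among the 9 tested probe sets of cadherins, differences from the controls were small, between -0.26 and 0.36 on the log2 scale, and none passed the test. Cdh2, N-cadherin of the neural tube, heart and somites, had 2 tested probe sets. For 1449244_at, signals were 977 and 937 in NTD embryos and 733, 902 and 764 in no-NTD embryos, against 1047 and 984 in controls. Every exposed embryo was below both controls, by a narrow margin for NTD 1, and the difference was -0.24 ± 0.15 with an adjusted p of 0.438. For 1418815_at the groups overlapped, at 1489 to 1991 in exposed embryos and 1664 to 1860 in controls, and the difference was -0.04 ± 0.14.

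Cdh11, the cadherin of loose mesenchyme and migrating neural crest, gave 2257 and 2262 in NTD embryos and 1689, 2172 and 1743 in no-NTD embryos, against 2847 and 2028 in controls. Its controls were farther apart than the group means (2025 in exposed embryos and 2437 in controls), and the difference was -0.26 ± 0.17 with an adjusted p of 0.482. Its value came out at -0.50 without control 2 and -0.01 without control 1. Mesenchyme markers did not move as 1 group, and none of 14 tested probe sets was called. At an unadjusted p under 0.05, 5 were lower (35.7%), all 4 of Prrx1 and 1 of Pdgfra. At that p 2 were higher (14.3%), of Meox1 and Col1a1. Over all tested probe sets the shares were 8.52% lower and 7.63% higher. Their sums overlapped, at 10588 to 11703 in exposed embryos and 10395 to 11660 in controls. Cdh6, found in dorsal neural tube and kidney precursors, ranged between 301 and 476 in exposed embryos, against 285 and 479 in controls. Exposed embryos lay within the range of the controls, and the difference was -0.01 ± 0.23.

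Cdh3, P-cadherin of surface ectoderm and placenta, gave 251 and 307 in NTD embryos and 292, 295 and 291 in no-NTD embryos, against 240 and 237 in controls. All exposed embryos were above both controls, NTD 1 by little, and the difference was 0.27 ± 0.15 with an adjusted p of 0.403. Cdh22, a type II cadherin of brain and pituitary, gave 187 and 212 in NTD embryos and 248, 231 and 218 in no-NTD embryos, against 170 and 171 in controls. It too did not overlap between the groups, and the difference was 0.36 ± 0.18 with an adjusted p of 0.353. For both genes the 2 controls lay within a few units of each other.

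Cdh1, E-cadherin of epithelia, gave 251 and 185 in NTD embryos and 257, 209 and 141 in no-NTD embryos, against 151 and 190 in controls. The exposed embryos spread on both sides of the controls, and the difference was 0.27 ± 0.25 with an adjusted p of 0.636 (0.10 without control 1 and 0.43 without control 2). Of markers of simple and surface epithelium, 15 of 15 tested probe sets had a positive difference, 1 of them was called higher, 9 were higher at an unadjusted p under 0.05 (60.0%, beside 7.63% of all tested probe sets), and summed signals were 4563 to 6607 in exposed embryos (4563 to 4899 without no-NTD 1), against 3286 and 3319 in controls. Their part in the Cdh1 and Cdh3 values was not tested. Cdh5, the cadherin of endothelial junctions, ranged between 301 and 357 in exposed embryos, against 269 and 318 in controls (0.17 ± 0.15, adjusted p = 0.610, and 0.05 without control 1). Endothelial marker sums overlapped, at 2969 to 3859 in exposed embryos and 3207 to 3276 in controls. Cdh15, M-cadherin of muscle precursors, ranged between 86.9 and 166 in exposed embryos, against 113 and 126 in controls, a difference of 0.05 ± 0.30.

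**Figure D3:**
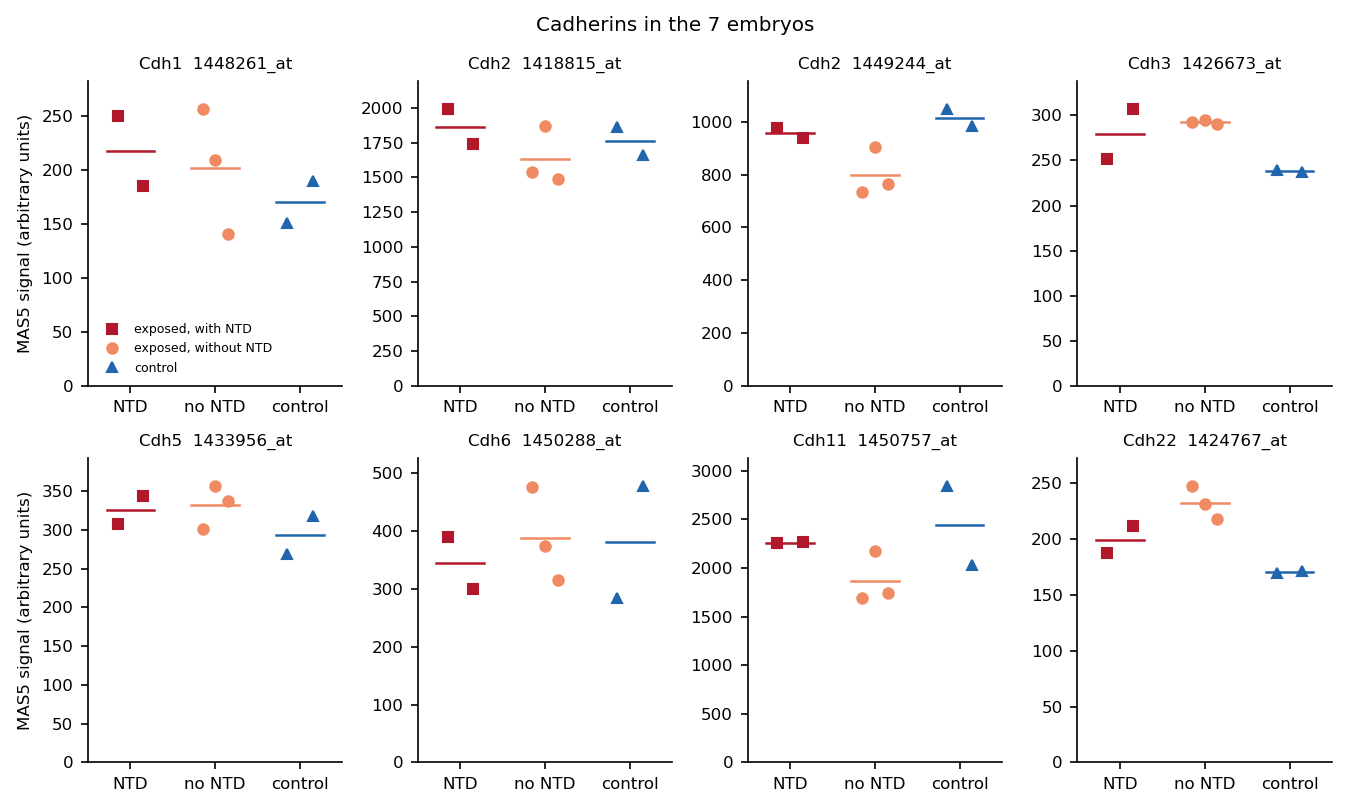
MAS5 signal (arbitrary units, linear axes starting at 0) of 8 probe sets for 7 cadherins in each embryo, by group, with lines at the group means. Exposed and control embryos do not overlap for Cdh2 1449244_at (exposed lower), Cdh3 and Cdh22 (both exposed higher), by margins that did not pass the test.

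The ubiquitous catenins hardly differed between the groups. Ctnna1, αE-catenin of epithelia and most other cells, gave 2746 to 3107 in exposed embryos and 2779 to 3269 in controls for 1437807_x_at (-0.06 ± 0.11). For 1448149_at it gave 4526 and 4693 in NTD embryos and 3781, 4638 and 4742 in no-NTD embryos, against 4269 and 3973 in controls (0.12 ± 0.12). In that probe set no-NTD 1 was the lowest of all 7 embryos, and the other exposed embryos were above both controls. Ctnnd1, p120-catenin, gave 514 and 520 in NTD embryos and 560, 500 and 549 in no-NTD embryos, against 612 and 449 in controls (0.01 ± 0.15). Its controls enclosed every exposed embryo. Ctnnd2, the neural δ-catenin, ranged between 261 and 377 in exposed embryos, against 258 and 271 in controls (0.20 ± 0.17, adjusted p = 0.589). Of the neural catenins, Ctnna2 was therefore below both controls in every exposed embryo, and Ctnnd2 was above both in 4 of 5.

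Among the remaining protocadherins, Pcdh8, which takes part in cell sorting in presomitic mesoderm, gave 487 and 413 in NTD embryos and 488, 445 and 481 in no-NTD embryos, against 338 and 420 in controls. Only NTD 2 fell within the range of the controls, and the difference was 0.29 ± 0.14 with an adjusted p of 0.347 (0.14 without control 1 and 0.45 without control 2). Of 23 probe sets for the β cluster, whose single-exon genes lie side by side and resemble one another closely enough that probes may be shared between copies, 3 were tested. Pcdhb2 gave 101 and 113 in NTD embryos and 20.2, 128 and 138 in no-NTD embryos, against 96.3 and 162 in controls. Only no-NTD 1 was low, and the difference was -0.58 ± 0.68, or -0.07 without that embryo. Pcdhb21 ranged between 71.0 and 159 in exposed embryos, against 114 and 137 in controls (-0.19 ± 0.36). Pcdhb8 ranged between 105 and 191 in exposed embryos, against 91.5 and 151 in controls (0.12 ± 0.31).

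The members below the filter held few separations. Cdh4, R-cadherin of the retina and brain, gave 98.0 to 188 in exposed embryos and 85.0 to 105 in controls for 1449422_at. Cdh13, the cadherin that is tethered to the membrane by a lipid anchor and has no catenin-binding tail, gave 105 to 148 in exposed embryos and 111 to 116 in controls for 1423551_at. The 6 shared α-cluster probe sets stayed at 97.6 or less in every embryo. Cdh16, the kidney cadherin, was at 179 in NTD 2, against 28.3 to 63.7 in the other exposed embryos and 14.7 and 31.3 in controls, and was named after its values were seen.

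Without the filter, 5 of the 71 member probe sets had an unadjusted p under 0.05, where 12.7% of all probe sets did, and the exposed and control signals of 11 did not overlap, where those of 20.6% of all probe sets did not. The probe sets added in this way all lay below the filter. Pcdhb10 had the smallest p of them, at 29.6 and 31.7 in NTD embryos and 51.0, 21.7 and 53.7 in no-NTD embryos, against 4.15 and 9.22 in controls, with an adjusted p of 0.121 in that fit. Pcdhb6 was at 65.1 to 91.6 in exposed embryos, against 47.5 and 61.1 in controls. Pcdh7 was lower, at 36.1 to 104 in exposed embryos, against 118 and 125 in controls.

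Exposed embryos with NTD were next set against exposed embryos without NTD. None of the 21 members was called, where 0.0% of all tested probe sets were, and 0 members had an unadjusted p under 0.05, where 3.02% of all tested probe sets did. The smallest unadjusted p was 0.103, for Cdh2 1449244_at, at 977 and 937 in NTD embryos, against 733, 902 and 764 in no-NTD embryos. Both NTD embryos were above all 3 without NTD there, and the difference was 0.27 ± 0.15 (SE, n = 2 and 3, adjusted p = 0.999). Cdh11 was 0.28 ± 0.18 and Cdh2 1418815_at 0.20 ± 0.15, in the same direction, and Cdh15 was -0.40 ± 0.32. Pcdh18 1430427_a_at was 1.66 ± 1.12, a value that NTD 1 carried: without that embryo it was 0.60. The other Pcdh18 probe sets were -0.03 ± 0.29 and -0.05 ± 0.19, and Ctnna2 was -0.16 ± 0.27.

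Genes whose products work with cadherins were taken as a list of 35, among them β-catenin, plakoglobin, vinculin, α-actinins, nectins and the proteases that cut cadherins. On the array were 32 of them with 73 probe sets, and 62 were tested. None was called, and at an unadjusted p under 0.05 5 were higher (8.06%) and 10 lower (16.1%), beside 7.63% and 8.52% of all tested probe sets. The median difference was -0.02. The 5 higher ones were of Actn1, Vasp, Ptprf and Iqgap1, at differences between 0.32 and 0.43. With only the brightest probe set of each gene, 30 were tested. Of these, 4 were higher and 1 lower at that p, and their median difference was 0.03. The probe sets of smallest p, all lower, are described below with the others of their genes. Ctnnb1, β-catenin, joins cadherins to α-catenin and also carries Wnt signals, and it had 3 probe sets. For 1430533_a_at, signals were 2189 and 2085 in NTD embryos and 2263, 1960 and 2418 in no-NTD embryos, against 3329 and 3302 in controls. All exposed embryos were well below both controls, and the difference was -0.61 ± 0.11 with an adjusted p of 0.0619. For 1450008_a_at it was -0.34 ± 0.11 with an adjusted p of 0.177, and again no exposed embryo reached a control. For 1420811_a_at the groups overlapped at 8398 to 9942 in exposed embryos and 8762 to 9252 in controls (0.04 ± 0.10).

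Adam10, the protease that sheds the outer part of N- and E-cadherin, showed the same disagreement between its probe sets. For 1450104_at, signals were 324 and 316 in NTD embryos and 178, 301 and 344 in no-NTD embryos, against 597 and 788 in controls, a difference of -1.27 ± 0.25 with an adjusted p of 0.0619. For 1450105_at it was -0.58 ± 0.13 with an adjusted p of 0.0853. For 1428103_at the groups overlapped at 1066 to 1778 in exposed embryos and 1492 to 1550 in controls (-0.17 ± 0.20). Vcl, vinculin, which binds α-catenin under tension, was named after its values were seen: 1416157_at was at 77.0 to 178 in exposed embryos, against 284 and 313 in controls (-1.30 ± 0.30, adjusted p = 0.0974), and 1416156_at overlapped at 1167 to 1886 in exposed embryos and 1697 to 1805 in controls (-0.17 ± 0.17). With quality weights for each array, where 3.37% of all tested probe sets were called, 4 of these partner probe sets were called, 1 of Ctnnb1, 2 of Adam10 and 1 of Vcl. Without no-NTD 1, where 0.275% of all tested probe sets were called, 1 was called, Adam10 1450104_at (-1.10, adjusted p = 0.0335).

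**Figure D4:**
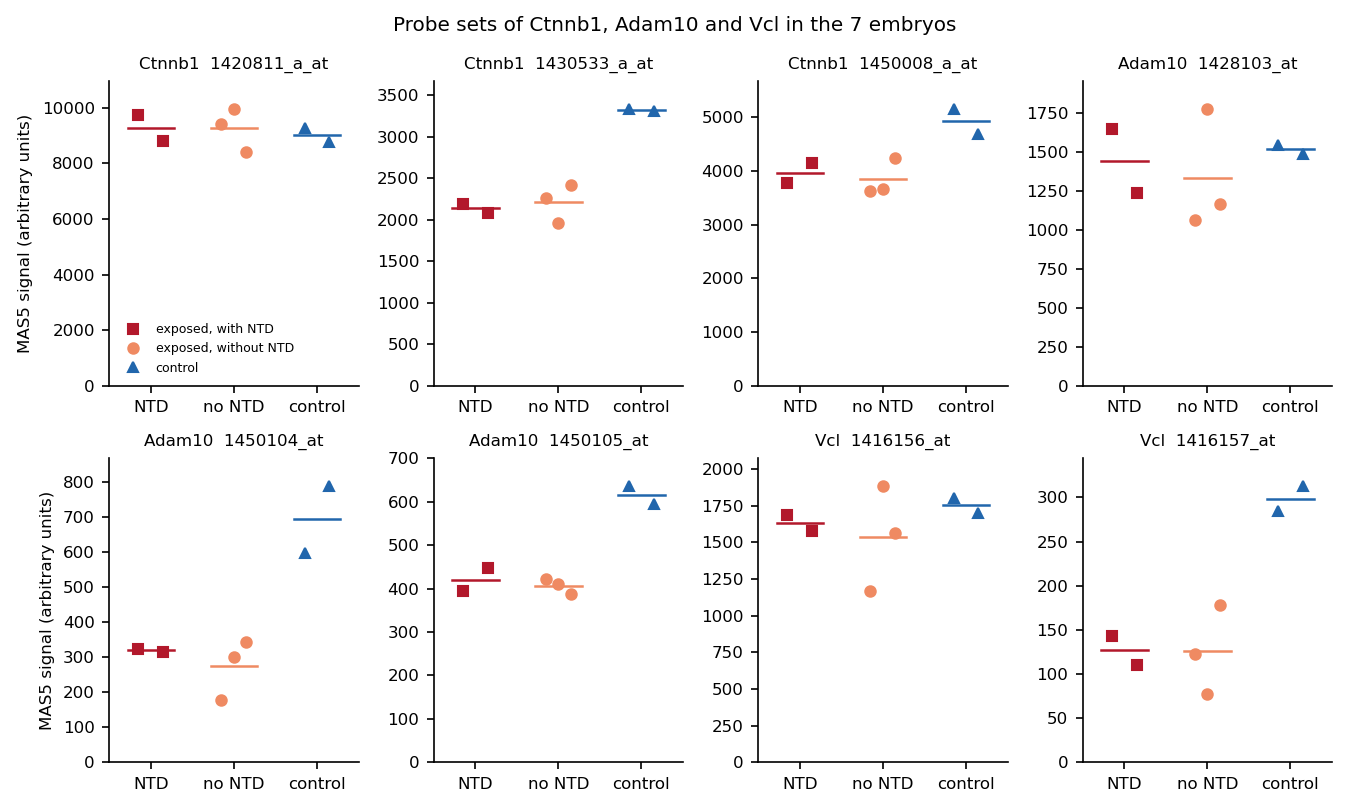
MAS5 signal (arbitrary units, linear axes starting at 0) of all probe sets of Ctnnb1, Adam10 and Vcl in each embryo, by group, with lines at the group means. For each gene the groups overlap in 1 probe set (1420811_a_at, 1428103_at and 1416156_at), and every exposed embryo lies below both controls in each of the others.

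Desmosomal cadherins and their anchor desmoplakin form the strong junctions of epithelia and heart. Of 9 genes listed, 5 were on the array with 13 probe sets. All 5 tested probe sets, of Dsg2 and Dsp, had a positive difference, and none was called. Dsg2 1449740_s_at was at 224 to 289 in exposed embryos, against 176 and 203 in controls (0.41 ± 0.17, adjusted p = 0.267), and no exposed embryo overlapped a control. Dsg2 1460380_at was 0.54 ± 0.29 and Dsp 1435493_at 0.36 ± 0.17. In the remaining tested probe set of each gene the groups overlapped. That of Dsg2 was at 0.33 ± 0.20. That of Dsp, its brighter one, was at 391 to 601 in exposed embryos, against 428 and 484 in controls (0.06 ± 0.17). Summed signals of the desmosomal list overlapped too, at 777 to 1087 in exposed embryos, against 831 and 859 in controls. The part of the epithelial markers given above in the Dsg2 and Dsp values was not tested.

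Atypical cadherins include the planar polarity receptors of the Celsr family, the Fat and Dachsous proteins and the synaptic calsyntenins. Of 16 listed genes 9 were on the array, those of the Celsr, calsyntenin and Cdhr groups and Ret. No listed Fat or Dachsous gene was among them. The list had 10 tested probe sets, none of them called. Celsr2 1422073_a_at was at 315 to 459 in exposed embryos, against 273 and 281 in controls (0.42 ± 0.16, adjusted p = 0.241). The other tested Celsr2 probe set, which was brighter, was at 0.19 ± 0.17, and there the groups overlapped. Clstn3 was 0.36 ± 0.22, with 0.06 without control 1 and 0.67 without control 2, and Clstn1 1421860_at -0.49 ± 0.31. The other tested Clstn1 probe set, again the brighter, had the opposite sign, at 0.15 ± 0.20. The groups overlapped in both Clstn1 probe sets.

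Transcription factors that repress cadherins or drive the epithelial to mesenchymal transition were all 10 on the array, with 14 tested probe sets and none called. Differences were above 0 for 9 and below 0 for 5, with a median of 0.05, and those of smallest p are given first. Snai1, the Snail repressor of Cdh1, gave 366 and 362 in NTD embryos and 442, 343 and 436 in no-NTD embryos, against 299 and 250 in controls. All exposed embryos were above both controls, and the difference was 0.50 ± 0.16 with an adjusted p of 0.176. Snai2, Slug of the neural crest, was at 131 to 236 in exposed embryos, against 109 and 129 in controls (0.59 ± 0.27, adjusted p = 0.314), and Twist1 was 0.35 ± 0.19, with 0.54 without control 1 and 0.16 without control 2. Zeb2, also a repressor of Cdh1 and named after its values were seen, was at -0.42 ± 0.28 with an adjusted p of 0.472. Cdh1 itself, in the same embryos, stood at 0.27 ± 0.25.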

How the data were processed

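Total RNA from each whole embryo was labelled and hybridised to an Affymetrix 430A 2.0 array. The deposited values are linear signal intensities that the authors made with MAS5 in Affymetrix software from matched and mismatched probes, with all 7 arrays scaled to the same trimmed mean. Precision is limited by how few arrays there are. No version number was found for MAS5 in the sources used here. All 7 columns were used.

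Probe sets were named from the platform annotation (20393 with 1 symbol, 691 with several, 1606 with none), and the 64 array controls were left out of tests. Signals under 1 were set to 1 and taken to log2. Probe sets at or above their array's 40th percentile in 2 or more arrays (14554) were fitted with limma 3.58.1 in R 4.3.3 (moderated, with a trend of the spread on signal, two-sided), exposed against control, and in 3 groups for with NTD against without NTD. Adjusted p-values are Benjamini-Hochberg over all tested probe sets, and the threshold was 0.05. The procedure was tested on simulated data. Alternatives changed the normalization, floor, filter, variance model, weights, grouping and embryos used. Single-value exact permutation tests were not used, since 2 controls against 5 exposed embryos allow no p below 0.048.

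Members and gene lists were chosen with earlier results of these data known. Members were named by rule: the 10 of smallest p in the first comparison, the 5 of smallest p in the second, all Pcdh18 probe sets, 12 cadherins and catenins by role, and the 3 of smallest p in each other list. Promoters came from RefSeq, and 17 of 51 member genes matched.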

Additional observations from a re-analysis of the deposited data

Results flagged for a closer look

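In 4 of the tested member probe sets, 1 of the 5 exposed embryos lay apart from the rest by Dixon's ratio of gap to range. The ratio was taken on log2 signals, and chance alone flags about 1 of 20 groups by it. For Pcdhb2, no-NTD 1 was at 20.2, against 101 to 138 in the other exposed embryos. For Pcdhb8, no-NTD 1 was high at 191, against 105 to 122 in the others. For Ctnna1 1448149_at, no-NTD 1 was at 3781, against 4526 to 4742 in the others. For Cdh3, NTD 1 was at 251, against 291 to 307 in the others. Of these 4 probe sets, 3 pointed to no-NTD 1, the embryo with the high yolk sac endoderm signal, and the part of that signal was not tested. The shares over all tested probe sets were not at hand, so neither count can be set against them.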

How the results depend on the processing

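Members called stayed at 0 for exposed against control embryos under every alternative but quality weights for each array, which called 1 (Ctnna2, -0.85) and 3.37% of all probe sets. The partner list had 4 called with those weights and 1 without no-NTD 1, where 0.275% of all probe sets were called. Leaving out any other single exposed embryo gave 0. Member probe sets whose groups did not overlap, 6 of 21 in the main comparison (28.6%, beside 24.7% of all tested probe sets), numbered 11 of 71 without a filter (15.5%, beside 20.6%), 3 of 13 with a filter on the mean signal (23.1%, beside 25.7%) and 6 to 13 with 1 embryo left out. Without control 1 they numbered 10 (47.6%, beside 39.6%) and without control 2 13 (61.9%, beside 44.7%), as a single control leaves less to overlap with. Members with an unadjusted p under 0.05 (3) were 5 without a filter and in the methods' t-test, and 1 with a filter on the mean signal and without control 1, where the shares over all probe sets were 12.7%, 18.2%, 16.5% and 7.30%. The partner list had 15 at that threshold and 9 without the NTD embryos, where the shares over all probe sets were 16.2% and 14.9%. Fewer partners also reached it without either control, where the share over all probe sets fell too. For with NTD against without NTD, members called stayed at 0 in all alternatives. Members with an unadjusted p under 0.05 were 2 without no-NTD 2. The share over all probe sets was not at hand for that setting, so this count cannot be set against it.

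Replicate numbers did not pair embryos (correlations of deviations between same-numbered embryos ran between -0.248 and 0.026). With the replicate block, 0 members were called and 3 had an unadjusted p under 0.05. Small differences changed sign with the replicate block: Cdh15 -0.062, Cdh2 1418815_at 0.014, Ctnnd1 -0.0022 and Cdh6 0.041. Quality weights gave Cdh2 1418815_at 0.0052 and Ctnnd1 -0.0043, quantile normalization gave Cdh6 0.003 and Ctnnb1 1420811_a_at -0.089, and leaving out the NTD embryos gave Cdh6 0.052. With 1 embryo left out, differences that crossed 0 ran between -0.062 and 0.17 for Cdh15, -0.12 and 0.043 for Cdh2 1418815_at, -0.21 and 0.24 for Ctnnd1, -0.17 and 0.061 for Ctnna1 1437807_x_at, -0.39 and 0.36 for Cdh6, -0.24 and 0.48 for Pcdhb8, and -0.0025 and 0.076 for Ctnnb1 1420811_a_at. For with NTD against without NTD they ran between -0.35 and 0.24 for Pcdh18 1422889_at and between -0.34 and 0.28 for Pcdh18 1422890_at. Other small differences kept their sign but not their size: over single embryos left out, Pcdhb2 ran between -0.96 and -0.07, Pcdhb21 between -0.33 and -0.04 and Clstn1 1421860_at between -0.61 and -0.32 (-0.70 without the NTD embryos). None of these differences was called in any setting, and the cause was not tested. In all, 5 values passed the threshold only under an alternative: Ctnna2, Ctnnb1 1430533_a_at, Adam10 1450104_at, Adam10 1450105_at and Vcl 1416157_at with quality weights, and Adam10 1450104_at also without no-NTD 1. Only 2 control embryos limit every comparison with exposed embryos, and low signals limit the 50 members below the filter.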
